A study of Mus musculus with 16 samples.

Results

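The genes described here are 8 genes of pericytes and of PDGF-B signalling, Rgs5, Kcnj8, Abcc9, Pdgfrb, Pdgfb, Cspg4, Notch3 and Acta2, chosen by symbol and followed across 4 treatment groups. Of the 8, 6 were measured among the 17097 genes tested. Abcc9 was covered by 2 probe sets that are also assigned to 5330439B14Rik, and Cspg4 was not analysed here. The tumours were grown under the skin of the flank from Hepa1-6 cells, a mouse hepatocellular carcinoma line, in 50% Matrigel, so all of them descend from 1 cell line. The hosts were male C57BL/6 mice aged 5 weeks at implantation. Treatment began once a tumour measured 200 to 300 cubic mm, and tumours were collected on day 14. The Placebo group (4 tumours) received hamster IgG at 10 mg/kg, in 5 injections 3 days apart. The AntiPD1 group (3 tumours) received the hamster antibody J43 against the T cell checkpoint receptor PD-1 at the same dose and interval. The Cabozantinib group (5 tumours) received the oral kinase inhibitor cabozantinib at 30 mg/kg daily, and the labels do not state whether IgG was given as well. The Combination group (4 tumours) received cabozantinib and the antibody. Each tumour was read on 1 array, and the deposited values are log2 signals, so a difference of 1 is a doubling. Nothing in the labels says whether tumours of a group shared cages or handling days, and the p-values measure the spread between these tumours.

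Pericytes are the mural cells that sit on the outside of capillaries, within the basement membrane they share with the endothelium. Endothelial cells of growing vessels release PDGF-B, which is held near the cell surface and binds the receptor PDGFR-beta on pericytes, and this signal recruits them and keeps them in place. Kcnj8 and Abcc9 encode the pore (Kir6.1) and the regulatory subunit (SUR2) of the ATP-sensitive potassium channel of mural cells. Rgs5 encodes a regulator of G protein signalling that is abundant in pericytes of active vessels. Notch3 is the Notch receptor of mural cells, and Acta2 encodes the smooth muscle actin of contractile mural cells and of activated fibroblasts.

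The labelled tissue carried transcripts listed as pericyte markers. Of 10 measured pericyte markers, 9 had a mean over the 16 tumours above 5.13, the highest array median, and Cox4i2 did not. Over all genes, 10141 of 17097 were above that level, so such a level does not identify a cell type. Of the 4 measured smooth muscle markers only Acta2 was above that level, since Myh11, Cnn1 and Lmod1 were not. Endothelial markers were above it in 5 of 7 cases, with Tek and Tie1 below, and fibroblast markers in 5 of 6, with Pdgfra below. The 4 markers of the hepatocyte line and the 6 skeletal muscle markers were all above it. Muscle signal was uneven. The skeletal muscle score, an average over 12 genes after each was centred on its mean of all tumours, exceeded 1 in AntiPD1 replicate 2 (4.57), Cabozantinib replicate 3 (2.19), Cabozantinib replicate 4 (4.16) and Combination replicate 4 (5.28). The adipocyte score, over 5 genes, exceeded 1 in Cabozantinib replicate 2 (3.55), Combination replicate 1 (3.1) and Combination replicate 2 (2.40). Labelling control probe sets averaged 8.41 ± 0.61 (SD, n = 4) in Placebo and 9.15 ± 0.31 (SD, n = 5) in Cabozantinib. In AntiPD1 they averaged 8.84 ± 0.23 (SD, n = 3) and in Combination 8.55 ± 0.60 (SD, n = 4). Hybridisation control probe sets, which were not tried as a covariate, were also higher in Cabozantinib (10.49 ± 0.29, SD, n = 5) than in Placebo (9.86 ± 0.39, SD, n = 4). A score of 3 Y-linked genes averaged -0.39, 0.58, -0.47 and 0.54 in Placebo, AntiPD1, Cabozantinib and Combination. For the members, results that move with these measures are given with and without them. For single genes of the other lists no such check was made. Over all genes, 1771 had an adjusted p below 0.05 in Combination against Placebo. That count was 5 without the adipocyte-rich tumours and 1 with the Y-linked score as a covariate.

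Cabozantinib alone lowered the levels of 2 of the 6 measured members, Rgs5 and Kcnj8, relative to Placebo. Rgs5 fell by 0.94 and Kcnj8 by 0.70 on the log2 scale. None of the 6 rose, and the PDGF-B ligand and receptor genes did not pass the test. Over all genes, 44 of 17097 passed in this comparison, or 0.257%. These are bulk samples, so the cells that gave the Rgs5 and Kcnj8 signal were not identified. Fewer pericytes and less RNA per pericyte cannot be told apart either.

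The promoter regions of Rgs5 and Kcnj8, which both fell, and of Acta2, which did not pass this test, are shown for comparison. Each is the 250 bases before the RefSeq gene start in GRCm38.p6, read in the direction of the gene. Capitals mark matches to the motifs searched on both strands.
Rgs5 (chr1:169655251-169655500, plus strand): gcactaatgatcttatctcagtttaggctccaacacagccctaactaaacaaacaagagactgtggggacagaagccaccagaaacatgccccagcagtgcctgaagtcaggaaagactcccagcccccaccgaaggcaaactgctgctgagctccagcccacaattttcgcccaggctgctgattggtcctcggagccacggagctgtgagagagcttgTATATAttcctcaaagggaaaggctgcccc
Kcnj8 (chr6:142571615-142571864, minus strand): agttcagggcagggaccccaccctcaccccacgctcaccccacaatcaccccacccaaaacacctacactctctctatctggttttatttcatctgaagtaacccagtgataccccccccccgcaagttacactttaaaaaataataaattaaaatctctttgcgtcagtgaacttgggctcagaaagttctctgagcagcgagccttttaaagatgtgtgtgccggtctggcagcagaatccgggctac
Acta2 (chr19:34255374-34255623, minus strand): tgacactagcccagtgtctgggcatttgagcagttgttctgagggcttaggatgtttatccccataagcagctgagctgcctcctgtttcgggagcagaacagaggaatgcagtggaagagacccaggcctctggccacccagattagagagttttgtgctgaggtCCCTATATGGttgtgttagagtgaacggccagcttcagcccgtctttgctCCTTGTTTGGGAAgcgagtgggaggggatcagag
The motifs were the CArG box (CC, then 6 bases of which at least 5 are A or T, then GG), which binds serum response factor, the RBPJ core TGGGAA of the Notch pathway, and the TATA sequences TATAAA and TATATA. The Rgs5 region holds TATATA at -30 to -25 from the gene start. The Acta2 region holds CArG boxes at -84 to -75 and -34 to -25, and TGGGAA at -27 to -22, which overlaps the second box. The Kcnj8 region holds none of these letters, so the regions of Rgs5 and Kcnj8 share no match. Of the member regions searched but not printed, that of Abcc9 holds TGGGAA at -221 to -216, and those of Notch3 and Cspg4 hold no match. Among 32851 promoter regions of the same length, 8.59% hold a CArG box, 21.6% TGGGAA and 5.25% TATATA, and 4063 hold TATAAA. A match is a description of the sequence, not a binding site.

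Rgs5 had log2 values of 11.33, 11.37, 11.25 and 11.24 in Placebo, against 10.42, 10.56, 10.38, 9.85 and 10.56 in Cabozantinib. All 5 Cabozantinib tumours lay below every Placebo tumour, and Cabozantinib replicate 4 was the lowest of all 16. How many of the 17097 genes keep these groups apart in this way was not counted, here or for the genes below. In this comparison 2218 genes had an unadjusted limma p below 0.05. The mean went from 11.30 ± 0.06 (SD, n = 4) to 10.36 ± 0.29 (SD, n = 5), a 1.92-fold lower level, and the difference was -0.94 ± 0.14 (SE, limma adjusted p = 0.0141). The AntiPD1 tumours had 11.02, 11.52 and 11.102, on both sides of the Placebo range, and Combination had 10.43, 10.46, 10.65 and 10.78. All 4 Combination tumours were also below every Placebo tumour.

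**Figure D1:**
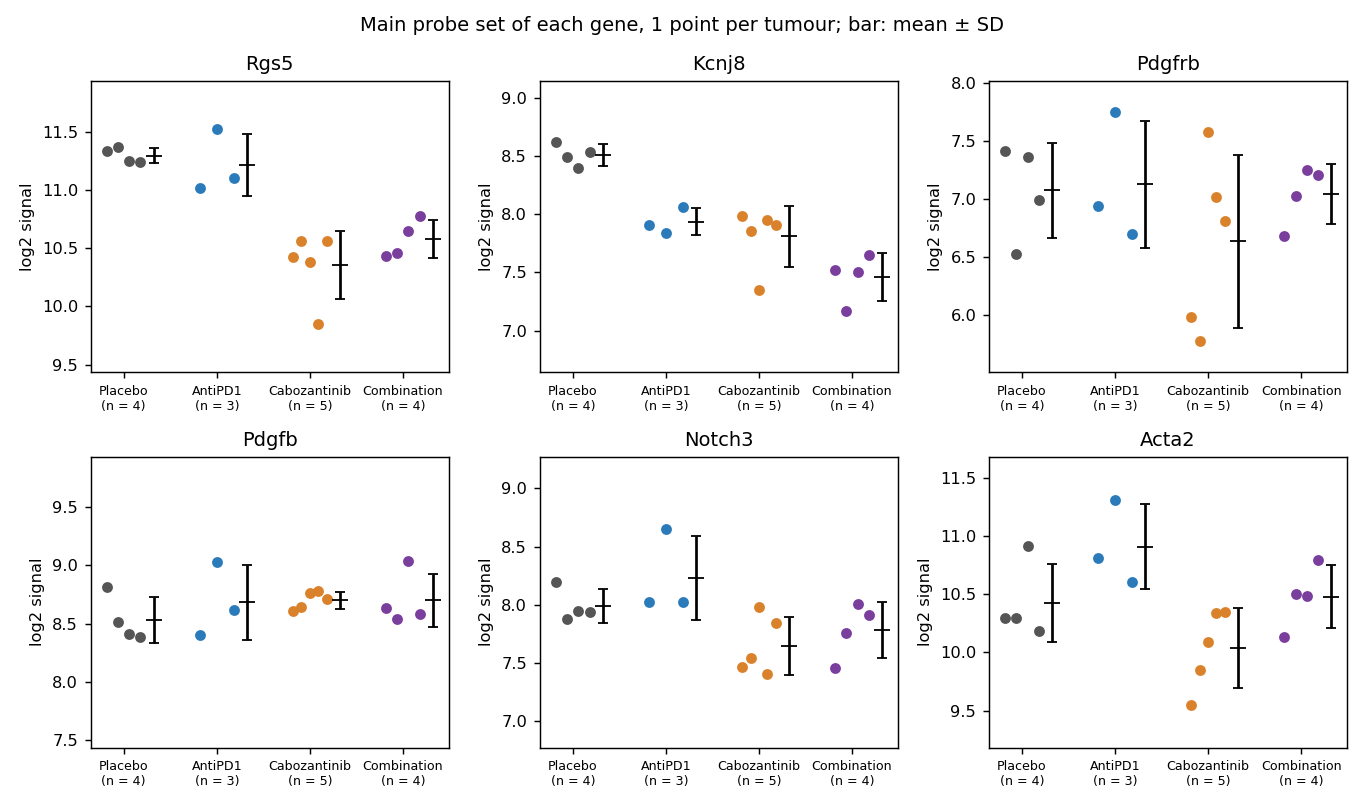
Log2 signal (vertical axis) of the main probe set of each of the 6 measured genes by treatment group, with 1 point per tumour and a bar for the group mean ± SD. For Rgs5 the 9 tumours given cabozantinib lie between 9.85 and 10.78, below the 7 others, which begin at 11.02, while Pdgfb and Pdgfrb overlap between all groups.

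The other 3 Rgs5 probe sets followed the main one, with Pearson r from 0.94 to 0.97 over 16 tumours, and in each the 5 Cabozantinib tumours were below every Placebo tumour. Their levels were 1.94, 1.95 and 2.22 times lower in Cabozantinib, with adjusted p of 0.0304, 0.0748 and 0.0586 in a limma fit of all probe sets. In that fit the main Rgs5 probe set had an adjusted p of 0.0158, so 2 of the 4 passed.

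Kcnj8, the pore of the mural potassium channel, had 8.62, 8.49, 8.39 and 8.54 in Placebo and 7.98, 7.86, 7.35, 7.95 and 7.90 in Cabozantinib. No Cabozantinib tumour reached the Placebo range, and Cabozantinib replicate 3 was the lowest of its group. The difference was -0.70 ± 0.13 (SE, limma adjusted p = 0.0324), or 1.63-fold, from a Placebo mean of 8.51 ± 0.09 (SD, n = 4). The call is near the threshold: it held in 15 of 26 other settings, and in 8 of the 16 fits that left out 1 tumour. It was lost without any of the 4 Placebo tumours, without Cabozantinib replicate 2 or 5, and without Combination replicate 1 or 3, with adjusted p from 0.0506 to 0.109. The Rgs5 call held in 23 of 26, and was lost without Placebo replicate 3 (adjusted p = 0.0555). Both calls were lost when only these groups were fitted (0.0798 for Rgs5, 0.117 for Kcnj8) and with the labelling controls as a covariate (0.069 and 0.163), although the differences then were still -0.90 and -0.62. The part of the labelling controls in these results was not tested further. Without the muscle-rich tumours the differences were -0.78 and -0.60, and both passed.

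Abcc9, the partner of Kcnj8 in the channel, can be read only through the 2 probe sets shared with 5330439B14Rik, which lies within the Abcc9 interval in the RefSeq gene table. Neither was in the fit, so no test is given. The share of all probe sets that keep the groups apart was not counted, so a separation of tumours is a description only. The first shared probe set had 8.58, 8.45, 8.25 and 8.48 in Placebo and 7.07, 6.99, 6.93, 7.12 and 7.49 in Cabozantinib, with all 5 below every Placebo tumour. The mean difference was -1.32, and -1.06 on the second, which correlated with the first at r = 0.90 over 16 tumours. In AntiPD1 the first had 7.91, 8.58 and 8.08, and in Combination 7.71, 7.56, 7.52 and 8.67. The highest value of each of these 2 groups came from its muscle-rich tumour, AntiPD1 replicate 2 and Combination replicate 4. In Cabozantinib this was not so, since its muscle-rich replicates 3 and 4 had 6.93, the lowest of all 16, and 7.12, below replicate 5. SUR2 is also a subunit of the channel of striated muscle, and the part of muscle in these values was not tested. Of the other pair of channel genes, Kcnj11 and Abcc8, neither passed in any comparison. In Cabozantinib against Placebo their differences were 0.07 ± 0.08 and 0.27 ± 0.10 (SE, limma adjusted p = 0.803 and 0.29), and Abcc8 was at background in every group.

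**Figure D2:**
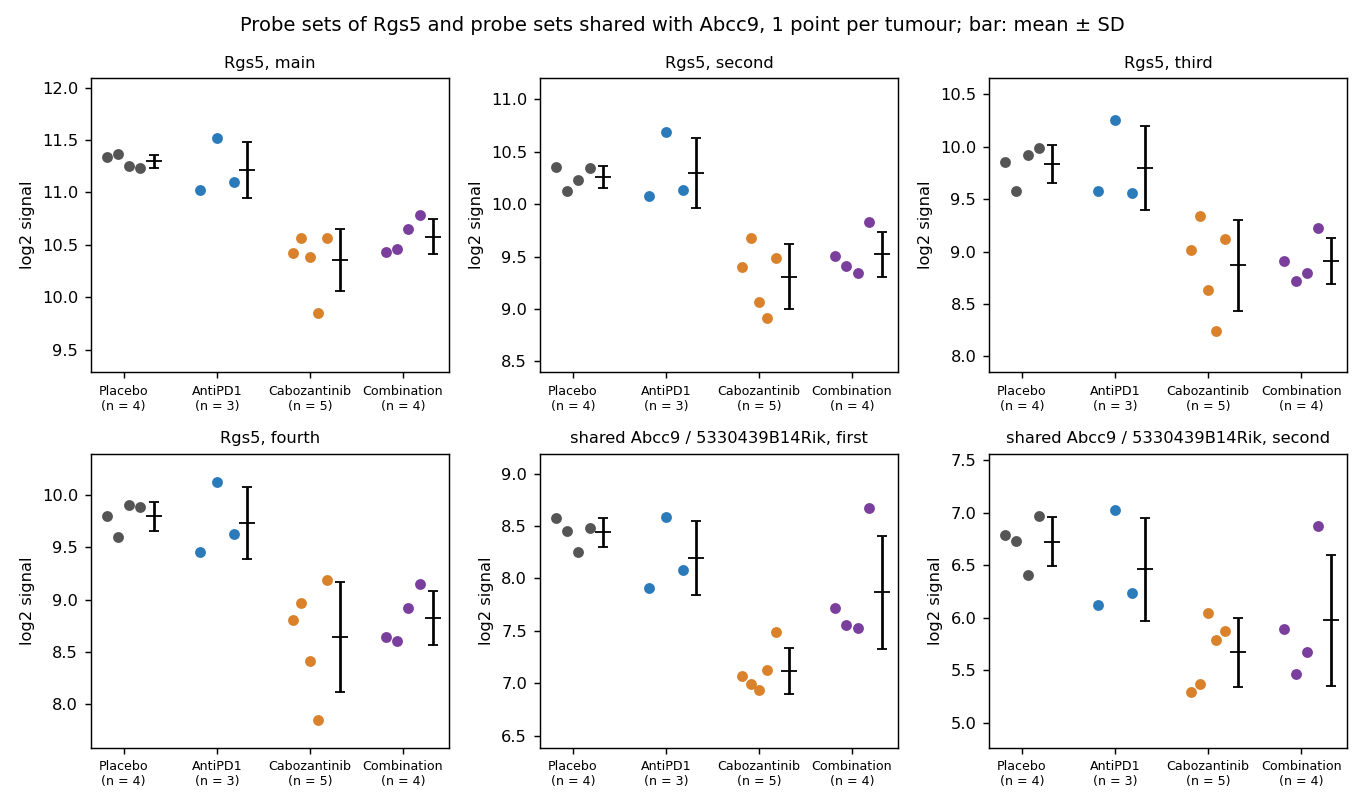
Log2 signal (vertical axis) of the 4 Rgs5 probe sets and of the 2 probe sets shared by Abcc9 and 5330439B14Rik, by treatment group, with 1 point per tumour and a bar for the group mean ± SD. In all 6 panels the 5 Cabozantinib tumours lie below the 4 Placebo tumours, and Combination replicate 4 stands above the rest of its group on both shared probe sets. The 4 Rgs5 panels show 1 gene, and the share of all probe sets with such a separation was not counted.

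Pdgfb, which encodes PDGF-B and whose source cells these bulk samples do not identify, differed little between groups. It had 8.81, 8.51, 8.41 and 8.38 in Placebo, 8.40, 9.03 and 8.62 in AntiPD1, 8.61, 8.64, 8.76, 8.78 and 8.71 in Cabozantinib, and 8.64, 8.54, 9.03 and 8.59 in Combination. Every group overlapped every other, and the 4 means lay between 8.53 and 8.70. The difference of Cabozantinib from Placebo was 0.17, with a 95% interval from -0.11 to 0.45 (limma adjusted p = 0.644), so a fall as large as that of Rgs5 lies outside the interval. A second Pdgfb probe set averaged 5.91, correlated with the first at r = 0.28 over 16 tumours, and passed in no comparison either.

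Pdgfrb, the receptor for PDGF-B, varied widely within groups. Its values were 7.42, 6.53, 7.36 and 6.996 in Placebo, 6.94, 7.74 and 6.70 in AntiPD1, 5.99, 5.78, 7.57, 7.02 and 6.81 in Cabozantinib, and 6.68, 7.02, 7.25 and 7.21 in Combination. Cabozantinib held both the lowest values of all 16 and the second highest, and it overlapped all other groups. The difference from Placebo was -0.44, with an interval from -1.15 to 0.27 (limma adjusted p = 0.64). That interval includes both no difference and one as large as that of Rgs5, so the data do not show that the receptor gene was unaltered.

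Notch3 had 8.20, 7.88, 7.95 and 7.93 in Placebo, 8.03, 8.65 and 8.02 in AntiPD1, 7.46, 7.54, 7.98, 7.40 and 7.84 in Cabozantinib, and 7.46, 7.76, 8.01 and 7.92 in Combination. In 4 of 5 Cabozantinib tumours it was below every Placebo tumour, but the difference of -0.34 ± 0.16 (SE) had a limma adjusted p of 0.375. Acta2 had 10.29, 10.30, 10.92 and 10.18 in Placebo and 9.55, 9.85, 10.09, 10.34 and 10.35 in Cabozantinib. These ranges overlapped, and the difference was -0.39 ± 0.20 (SE, limma adjusted p = 0.458). A second probe set of each gene was at background, with means of 4.59 for Notch3 and 4.03 for Acta2.

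**Figure D3:**
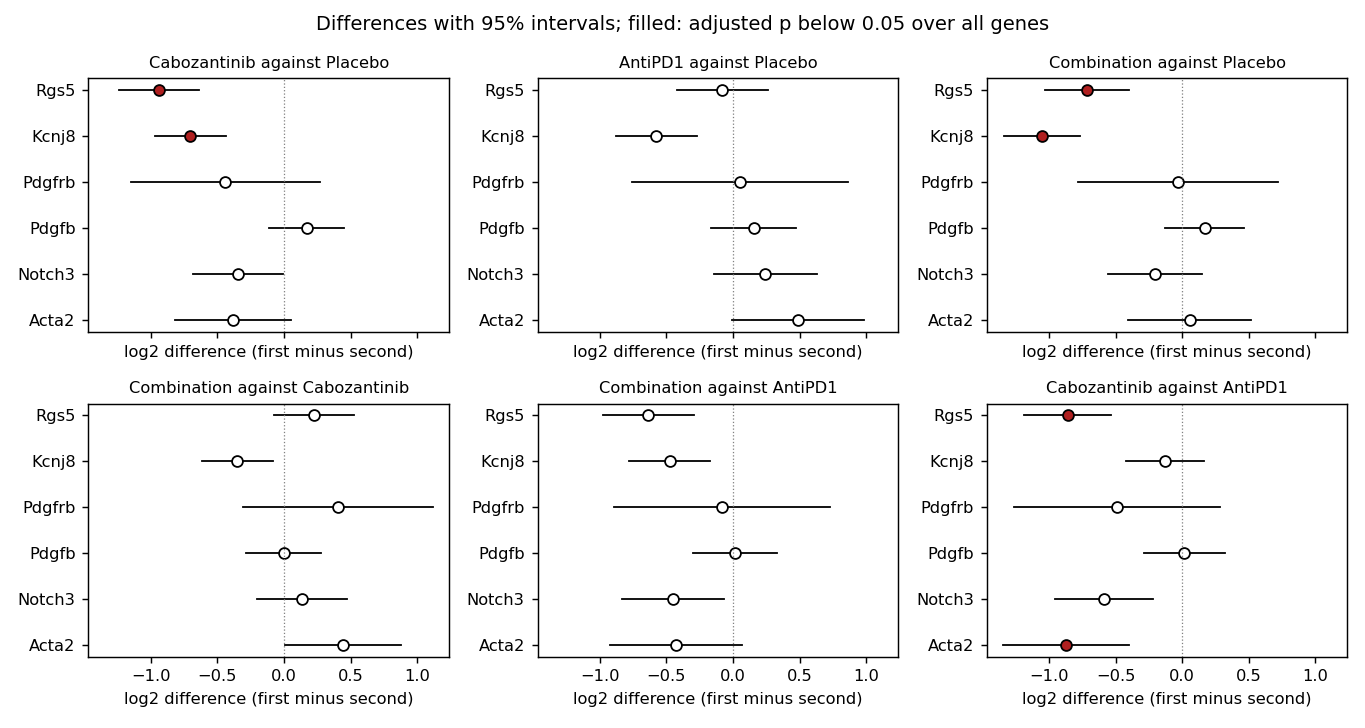
Log2 differences (horizontal axis) of the 6 measured genes in the 6 pairwise comparisons, with 95% intervals from limma. Filled points have an adjusted p below 0.05 over all genes: Rgs5 and Kcnj8 in both comparisons of a cabozantinib group with Placebo, and Rgs5 and Acta2 in Cabozantinib against AntiPD1.

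The antibody alone moved no member past the threshold, against a background of 5 of 17097 genes, or 0.0292%. The largest differences were those of Kcnj8 and Acta2, in opposite directions. Kcnj8 had 7.90, 7.84 and 8.06, all below every Placebo tumour, a difference of -0.58 ± 0.14 (SE, limma adjusted p = 0.127). Its unadjusted p was 0.00119, and 3278 genes had one below 0.05 in this comparison. Without Cabozantinib replicate 3, which enters only through the shared estimate of the spread, it passed (adjusted p = 0.0464), as it did with only these groups fitted (0.0489) and with array weights (0.0126). Acta2 had 10.81, 11.31 and 10.60, of which only AntiPD1 replicate 2, the muscle-rich tumour, was above every Placebo tumour, and the difference was 0.49 ± 0.23 (SE, adjusted p = 0.268). Rgs5 differed from Placebo by -0.08, with an interval from -0.42 to 0.26.

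In Combination against Placebo the same 2 members, Rgs5 and Kcnj8, passed and both fell. Here 1771 genes, or 10.4%, passed over the whole table, so a share of 2 in 6 has a far higher background than in Cabozantinib alone. Kcnj8 reached its lowest level, with 7.52, 7.17, 7.50 and 7.65, all below every Placebo tumour. It fell by 1.05 ± 0.13 (SE, limma adjusted p = 0.00412), a 2.07-fold lower level. Rgs5 fell by 0.72 ± 0.15 (SE, adjusted p = 0.0178), or 1.64-fold. Pdgfb, Pdgfrb, Notch3 and Acta2 had differences of 0.17, -0.03, -0.21 and 0.06, none of which passed. Leaving out the 3 adipocyte-rich tumours, which leaves 2 in Combination, gave differences of -0.58 for Rgs5 and -0.94 for Kcnj8, with adjusted p of 0.172 and 0.119. With the Y-linked score as a covariate they were -0.56 and -0.84, with adjusted p of 0.385 and 0.163. The Rgs5 call was also lost without Placebo replicate 2 (0.0577) or Combination replicate 2 (0.0723). The part of adipose tissue and of the Y-linked signal in these results was not tested further.

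Between the groups that share cabozantinib or the antibody, fewer members passed. In Combination against Cabozantinib none of the 6 did, and 1 gene of 17097 (0.00585%) did, while 3853 had an unadjusted p below 0.05. Kcnj8 was lower by a difference of -0.35 ± 0.13 (SE, adjusted p = 0.126), and without the muscle-rich tumours that difference was -0.52 and passed (adjusted p = 0.00784), as it did without Cabozantinib replicate 3 alone (-0.47, adjusted p = 0.0151). Rgs5 and Acta2 had differences of 0.22 and 0.44 (adjusted p = 0.369 and 0.218). In Combination against AntiPD1 none of the members passed either, against 40 genes or 0.234%. Rgs5 there was -0.64 ± 0.16 (SE, adjusted p = 0.176), with all 4 Combination tumours below every AntiPD1 tumour, and Kcnj8 was -0.48 ± 0.14 (SE, adjusted p = 0.331), likewise in 4 of 4. For Rgs5 and Kcnj8 these differences had unadjusted p of 0.0013 and 0.00478, and 1233 genes had one below 0.05. The Rgs5 difference passed without Cabozantinib replicate 4 (adjusted p = 0.0422).

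Cabozantinib against AntiPD1 gave 928 genes past the threshold, or 5.43%, and again 2 members, both lower. Rgs5 fell by 0.86 ± 0.15 (SE, limma adjusted p = 0.00806), with the groups apart. Acta2 fell by 0.87 ± 0.22 (SE, adjusted p = 0.0375), and all 5 Cabozantinib tumours, at most 10.35, were below the AntiPD1 minimum of 10.60. Notch3 had a difference of -0.59 ± 0.17 (SE, adjusted p = 0.0611), in 5 of 5 tumours, and passed without Cabozantinib replicate 3 (-0.67, adjusted p = 0.024), among genes above the highest array median (0.0463) and with the labelling controls as a covariate (0.0498). Kcnj8 was close between these groups, at -0.13 with an interval from -0.42 to 0.17. Without the muscle-rich tumours, which leaves 2 in AntiPD1, the Acta2 difference was -0.79 (adjusted p = 0.0699) and that of Rgs5 was -0.55 (adjusted p = 0.00939). With the Y-linked score as a covariate they were -0.48 and -1.04 (adjusted p = 0.529 and 0.0576). The Rgs5 call was lost without AntiPD1 replicate 2 (0.0583), and that of Acta2 without AntiPD1 replicate 1 or 2 or Cabozantinib replicate 1 or 2 (0.0775 to 0.199).

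Averaged over tumours with and without the antibody, cabozantinib went with lower Rgs5 by -0.79 ± 0.11 (SE, limma adjusted p = 0.00174) and lower Kcnj8 by -0.59 ± 0.10 (SE, adjusted p = 0.00624). These 2 of 6 members stand against 362 genes, or 2.12%. The Rgs5 call held in all 25 other settings, with adjusted p from 0.000519 to 0.0273. That of Kcnj8 held in 24 of 25, with adjusted p from 0.00112 to 0.0512, and was lost without the adipocyte-rich tumours. The interaction of the drugs, which asks whether Combination differs from the sum of the single treatments, passed for no gene (0 of 17097, or 0%, by limma), with 440 genes at an unadjusted p below 0.05. For Rgs5 it was 0.30 ± 0.21 (SE) and for Kcnj8 0.23 ± 0.19 (SE), both with adjusted p = 1.

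The order of the group means therefore differed between the members. For Rgs5 it was Placebo, AntiPD1, Combination, Cabozantinib, from high to low, and for Kcnj8 Placebo, AntiPD1, Cabozantinib, Combination. Pdgfrb and Notch3 both ran AntiPD1, Placebo, Combination, Cabozantinib, and Acta2 ran AntiPD1, Combination, Placebo, Cabozantinib. In none of the 6 genes did neighbours in this order differ at an adjusted p below 0.05.

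The other PDGF genes were 5 by list, of which Pdgfa was not analysed here. Pdgfc, a ligand of the PDGF alpha receptor, was measured at 9.66 ± 0.10 (SD, n = 4) in Placebo and 9.54 ± 0.26 (SD, n = 5) in Cabozantinib, and it passed in no comparison. The alpha receptor gene Pdgfra was at background, with group means from 4.65 to 4.97. Pdgfd, the other ligand that acts through PDGFR-beta, was highest in AntiPD1, at 6.93 ± 0.47 (SD, n = 3), against 5.51 ± 0.40 (SD, n = 4) in Placebo and 5.35 ± 0.49 (SD, n = 5) in Cabozantinib. It fell by 1.58 ± 0.31 (SE, limma adjusted p = 0.0122) in Cabozantinib against AntiPD1, with 5 of 5 tumours below every AntiPD1 tumour. Its difference in AntiPD1 against Placebo was 1.42 ± 0.32 (SE, adjusted p = 0.111), and each of the 3 tumours exceeded the Placebo maximum. In the 8 comparisons together, this was the only call among the 4 genes.

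Of 19 further pericyte genes, none passed in Cabozantinib against Placebo, where 11 had negative differences and the median was -0.17, against 0.00 over all genes. The smallest p-values belonged to Mcam, the adhesion molecule CD146 of pericytes and endothelium, and Higd1b. Mcam was 7.75 ± 0.17 (SD, n = 4) in Placebo and 6.70 ± 0.37 (SD, n = 5) in Cabozantinib, a difference of -1.05 ± 0.21 (SE, limma adjusted p = 0.0519). Higd1b was 5.90 ± 0.49 and 4.80 ± 0.40, a difference of -1.11 ± 0.22 (SE, adjusted p = 0.0592), and its Cabozantinib mean was within background. For both genes the 5 Cabozantinib tumours were below every Placebo tumour. In Combination against Placebo 3 of the 19 fell and 1 rose, where 10.4% of all genes passed. Mcam fell by 0.90 ± 0.22 (SE, adjusted p = 0.0266), Higd1b by 0.90 ± 0.24 (adjusted p = 0.0345) and the aminopeptidase gene Enpep by 0.79 ± 0.22 (adjusted p = 0.0378). The Combination mean of Higd1b, 5.00, was also within background. Anpep, an aminopeptidase of pericytes and also of myeloid and epithelial cells, rose by 1.46 ± 0.43 (adjusted p = 0.0459), in 4 of 4 tumours. The median of the 19 in that comparison was 0.01, against -0.02 over all genes.

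**Figure D4:**
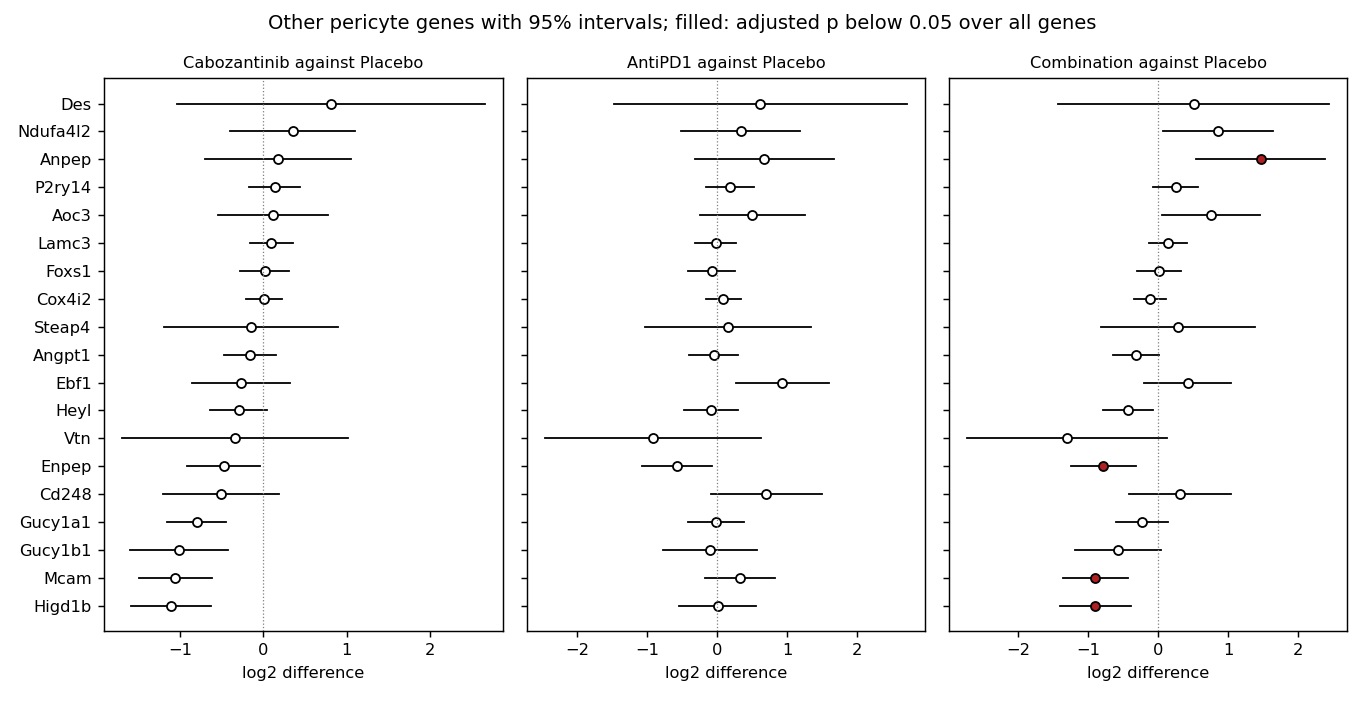
Log2 differences from Placebo (horizontal axis) of 19 further pericyte genes in Cabozantinib, AntiPD1 and Combination, with 95% intervals from limma; filled points have an adjusted p below 0.05 over all genes. Mcam and Higd1b lie near -1 in Cabozantinib and -0.90 in Combination, while most other genes have intervals that include 0.

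In Cabozantinib against AntiPD1 4 of the 19 fell, Mcam by 1.38 ± 0.22 (SE, limma adjusted p = 0.00509), Ebf1 by 1.20 ± 0.30, Higd1b by 1.11 ± 0.24 and Gucy1a1, a subunit of the nitric oxide receptor, by 0.78 ± 0.18. Over all genes, 5.43% passed in that comparison. The Cabozantinib means of Higd1b and Gucy1a1, 4.80 and 4.54, were within background, which limits what their falls measure. In Combination against AntiPD1 only Mcam passed, at -1.23 ± 0.23 (SE, adjusted p = 0.0474), and averaged over the antibody Mcam and Higd1b did, at -1.14 ± 0.16 and -1.01 ± 0.17 (adjusted p = 0.00177 and 0.00859). None of the 19 passed in AntiPD1 against Placebo or in Combination against Cabozantinib. In the first of these Ebf1 had 0.93 ± 0.31 (SE, adjusted p = 0.163) and Enpep -0.57 ± 0.23 (adjusted p = 0.215). In the second Gucy1a1 had 0.56 ± 0.17 (adjusted p = 0.089) and Anpep 1.28 ± 0.41 (adjusted p = 0.101).

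Of 12 measured contractile genes other than Acta2, none passed in Cabozantinib against Placebo, with a median difference of -0.10. Itga8, an integrin subunit of smooth muscle, had -0.53 ± 0.11 (SE, limma adjusted p = 0.0567) there, and it fell in Combination against Placebo (-0.37 ± 0.11, adjusted p = 0.0463) and in Cabozantinib against AntiPD1 (-0.75 ± 0.11, adjusted p = 0.00389), with a Cabozantinib mean of 5.01 that was within background. Myl9, a regulatory myosin light chain, fell by 2.00 ± 0.34 (SE, adjusted p = 0.00615) in Cabozantinib against AntiPD1. There all 12 genes had negative differences, against 7367 of 17097 over all genes. Their median was -0.43, against 0.03 over all genes. Of these genes, Myh11, Cnn1, Lmod1, Myocd and Pln were at background in every group, so the sign of their differences says little. The contractile score, formed like the skeletal muscle score, was 0.14, 0.76 and 0.09 in AntiPD1 replicates 1, 2 and 3, of which replicate 2 was muscle-rich. In Cabozantinib it ranged from -0.42 to 0.11. The part of muscle in this comparison was not tested for these genes. Both Myl9 and Itga8 also passed for cabozantinib averaged over the antibody.

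Of 11 measured Notch pathway genes other than Notch3, none passed in Cabozantinib against Placebo. Notch4, the endothelial receptor, fell in Combination against Placebo (-0.79 ± 0.18, SE, limma adjusted p = 0.0208), Combination against AntiPD1 (-1.33 ± 0.19, adjusted p = 0.00794) and Cabozantinib against AntiPD1 (-1.23 ± 0.18, adjusted p = 0.00314). Its means with cabozantinib, 4.47 and 4.37, were within background. In the last of these comparisons 4 of the 11 fell and 2 rose, where 5.43% of all genes passed. The Notch target genes Nrarp and Hey1 fell by 1.29 ± 0.26 and 0.68 ± 0.18, to Cabozantinib means of 4.59 and 4.83 that were within background, while the target Hes1 rose by 0.69 ± 0.17 and the ligand Jag1 by 0.59 ± 0.16. Rbpj, which encodes the DNA-binding factor of the pathway, rose in Combination against Placebo by 0.29 ± 0.08 (adjusted p = 0.0411). Heyl, a target in mural cells, was at background in every group and passed in no comparison, at -0.30 ± 0.16 (SE, adjusted p = 0.462) in Cabozantinib against Placebo.

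Endothelial genes, which mark the cells that pericytes cover, moved in the same comparisons. Of 16, 2 fell in Cabozantinib against Placebo, the junction gene Cdh5 by 1.33 ± 0.20 (SE, limma adjusted p = 0.0142) and Emcn by 1.65 ± 0.31 (adjusted p = 0.0381), with a median difference of -0.60 over the 16. The Cabozantinib mean of Cdh5, 4.99, was within background. So were those of Kdr, Tek, Tie1, Cldn5, Vwf, Robo4 and Erg, which lay between 4.15 and 5.12. Background limits what a fall of these genes measures, and the endothelial score below includes them. In Combination against Placebo 6 fell and 1 rose, where 10.4% of all genes passed. In Cabozantinib against AntiPD1 14 fell, where 5.43% of all genes passed. In AntiPD1 against Placebo all 16 differences were positive, against 43.2% over all genes, with a median of 0.86, and none passed. The endothelial score, the mean of the 16 centred log2 values, was highest in AntiPD1, at 0.94 ± 0.42 (SD, n = 3), followed by Placebo at 0.09 ± 0.34 (SD, n = 4). It was lower with cabozantinib, at -0.13 ± 0.10 (SD, n = 4) in Combination and -0.54 ± 0.21 (SD, n = 5) in Cabozantinib.

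Rgs5 and Pdgfrb were therefore also read as centred log2 value minus endothelial score, 1 value per tumour, with two-sided exact permutation tests adjusted over 12 tests. None of the 12 had an adjusted p below 0.05. The smallest exact p that these group sizes allow is 0.00794, and 0.0286 in the comparisons without the Cabozantinib group. After adjustment over 12 tests no test could pass on its own, however complete the separation. The absence of calls therefore does not show that there was no difference. In Cabozantinib against Placebo Rgs5 minus the score was 0.08 ± 0.49 (SD, n = 5) and 0.40 ± 0.40 (SD, n = 4), a difference of -0.32 (exact p = 0.389, adjusted 0.519). In Combination against Placebo it was -0.10 ± 0.15 (SD, n = 4), a difference of -0.50 with 3 of 4 tumours below every Placebo tumour (exact p = 0.0571, adjusted 0.114). In AntiPD1 against Placebo it was -0.54 ± 0.19 (SD, n = 3) against the same Placebo value, a difference of -0.94 with all 3 tumours below every Placebo tumour (exact p = 0.0571, adjusted 0.114). For Pdgfrb that difference was -0.80, again with 3 of 3 below (exact p = 0.0286, the smallest that 3 against 4 can give, adjusted 0.114). In Combination against AntiPD1 all 4 Combination tumours were above every AntiPD1 tumour for both genes, with differences of 0.44 for Rgs5 and 0.99 for Pdgfrb (exact p = 0.0286 for each, adjusted 0.114). Before the subtraction, Rgs5 and Pdgfrb differed by -0.08 and 0.05 in AntiPD1 against Placebo. In Combination against AntiPD1 they differed by -0.64 and -0.08. The subtracted score was highest in AntiPD1 (0.94), so these separations come largely from the score and not from the 2 genes. Within groups, r with the score was -0.05 for Rgs5 and 0.65 for Pdgfrb. For Cabozantinib against Placebo the Pdgfrb difference after the subtraction was 0.19 (exact p = 0.667, adjusted 0.727), and it was -0.04 without Cabozantinib replicate 3.

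**Figure D5:**
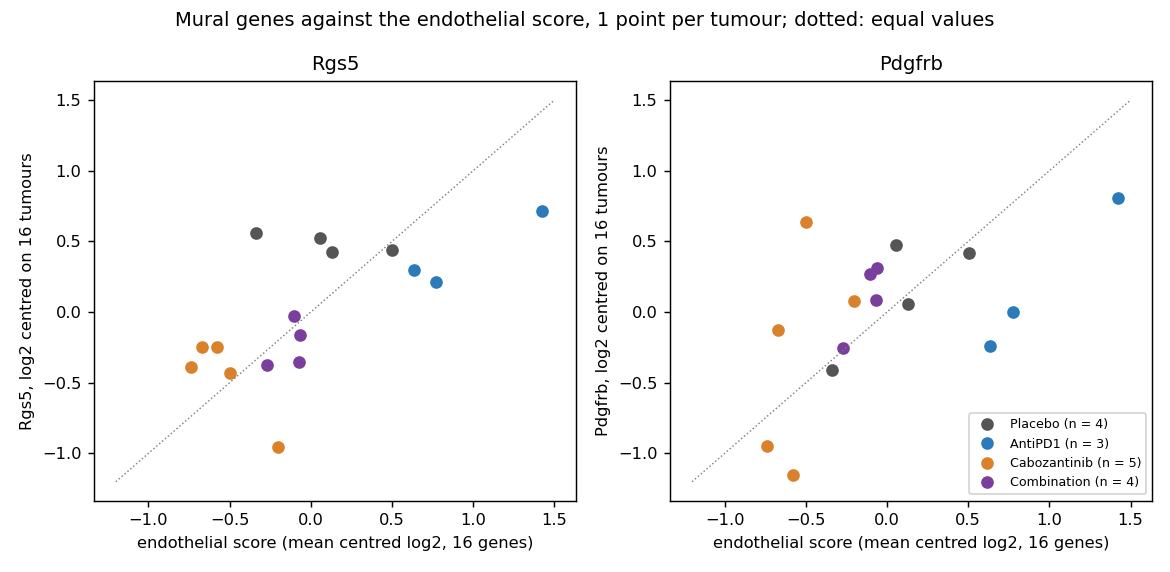
Centred log2 signal of Rgs5 and of Pdgfrb (vertical axes) against the endothelial score, the mean centred log2 value of 16 endothelial genes (horizontal axes), with 1 point per tumour coloured by group and a dotted line of equal values. The 3 AntiPD1 tumours lie below the line in both panels, while the 4 Placebo tumours lie on both sides of it.

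After each group's mean was taken off, Pdgfrb went with Notch3 over 16 tumours at r = 0.72 (rho = 0.63, and r = 0.70 without the 2 tumours most extreme in Pdgfrb) and with Acta2 at r = 0.69 (rho = 0.72, r = 0.81). Rgs5 went with Notch3 at r = 0.65 (rho = 0.63, r = 0.52), and with Kcnj8 at r = -0.01 (rho = 0.07, r = 0.30). For Rgs5 and Kcnj8, the 2 genes that fell with cabozantinib, the value within groups thus depends on 2 tumours. Pdgfrb followed the fibroblast score at r = 0.84 (rho = 0.82, r = 0.69), and Acta2 followed the contractile score at r = 0.88 (rho = 0.91, r = 0.87) and the skeletal muscle score at r = 0.76 (rho = 0.72, r = 0.69). For Rgs5 the r with the fibroblast, endothelial and skeletal muscle scores was -0.41, -0.05 and 0.10. These are descriptions over tumours that share the array, its normalization and uneven tissue content, and 15 pairs of members were examined.

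Among 10140 other genes above the highest array median, those most like each member within groups were found in the same way. For Pdgfrb they were Klc1 (r = 0.96), Sparcl1 (0.94) and Il6st (0.94), and for Notch3 Ap3m2 (r = 0.94), Mylk (0.89) and Afap1l2 (0.88). For Acta2 they were Myl9 (r = 0.89), Sppl2b (0.84) and the skeletal muscle actin Acta1 (0.84). For Rgs5 they were C87436 (r = 0.94), Tspan15 (0.92) and Thnsl1 (0.88), and for Kcnj8 Lratd2, Slc20a2 and Agpat3 (all r = 0.88). For Pdgfb the closest was Slc12a7 (r = 0.82), followed by Vcl (0.79) and Bcl3 (0.78). Each r is over 16 tumours, and the highest of so many is high in part by selection.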

How the data were processed

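Total RNA (50 ng per tumour) was hybridised to 1 Affymetrix mouse array each, per the labels' protocols. The table deposited by the authors holds log2 signals. It was made with RMA from affy 1.62.0, per the submitters' processing notes, and no settings, batch correction or genome build were found (not given in the sources used here). RMA puts all arrays on 1 distribution, so levels are relative, and signals near the array medians (4.92 to 5.13) carry background. Levels of different genes rest on different probes and are not compared.

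Of 45141 probe sets, 28898 were paired with 1 gene, 551 with several and 15588 with none. Each gene was represented by its probe set of highest mean, which left 17097 genes. The groups were contrasted by limma 3.58.1 with R 4.3.3 (lmFit and eBayes, 4 group means, no covariate, 12 residual and 2.47 prior degrees of freedom), with Benjamini-Hochberg adjustment over all genes and a threshold of 0.05. The fit was tested on simulated data. Rgs5 and Pdgfrb minus the endothelial score were compared with exact permutation tests.

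The members and gene lists were chosen with earlier results of these data known. All members are named in every comparison. Of each list, up to 4 genes past the threshold with the largest differences are named, or else the 2 with the smallest p, besides a fixed panel. The lists other than the members were further PDGF, pericyte, contractile, Notch, potassium channel, endothelial, fibroblast, skeletal muscle and adipocyte genes. Alternatives changed the probe sets, the samples fitted, array weights, filters, blocks and covariates, and left out each tumour in turn. Those on adipocyte genes, labelling controls and Y-linked signal were chosen after seeing the data. Arrays carry no read depth, and their number limits the precision.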

Additional observations from a re-analysis of the deposited data

Results flagged for a closer look

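In 3 of 18 checks of 1 gene in 1 group of 4 or 5 tumours, a single tumour stood apart from the others by more than the 95% limit of Dixon's test, which chance passes in about 1 of 20 groups. Rgs5 was 9.85 in Cabozantinib replicate 4, where the nearest tumour of the group had 10.38, a gap of 0.742 of the group's range. That tumour had a skeletal muscle score of 4.16. Kcnj8 was 7.35 in Cabozantinib replicate 3, with the nearest at 7.86, a gap of 0.804 of the range, and that tumour's skeletal muscle score was 2.19. Acta2 was 10.92 in Placebo replicate 3, with the nearest at 10.30, a gap of 0.839 of the range, and its skeletal muscle score of 0.83 was the highest of the Placebo tumours. The part of muscle in these values was not tested.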

How the results depend on the processing

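Every call of Rgs5, Kcnj8 and Acta2 kept its direction under every other setting tried, while its side of the threshold often moved. The counts over all genes moved more. Groups hold 3 to 5 tumours, and of the 16 tumours 4 were rich in muscle and 3 in adipocyte signal. For genes near the array medians, such as Pdgfra, Abcc8 and Heyl, background limits the size of any fall that could be measured. The same holds for Higd1b, Gucy1a1, Nrarp, Hey1 and Notch4 with cabozantinib, alone or in Combination. Sample titles carry a number whose meaning is not stated: 12 and 17 occur in both Placebo and AntiPD1, 18 in both Cabozantinib and Combination, and 11 in 2 Cabozantinib tumours. This number as a random block (consensus correlation -0.10) changed no member's call.

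The members past the threshold changed in number as follows. In Cabozantinib against Placebo (2 of 6) there were 0 with only those groups fitted, 0 with the labelling controls as a covariate, 1 without the adipocyte-rich tumours, and 0 to 2 when 1 tumour was left out. In Combination against Placebo (2) there were 0 without the adipocyte-rich tumours, 0 with the Y-linked covariate, and 1 to 2 with 1 tumour left out. In Cabozantinib against AntiPD1 (2) there were 0 with only those groups fitted, 0 with the Y-linked covariate, 1 without the muscle-rich or the adipocyte-rich tumours, 3 among genes above the highest array median and 3 with the labelling covariate (Notch3 added in both), and 0 to 3 with 1 tumour left out. For cabozantinib averaged over the antibody (2) there was 1 without the adipocyte-rich tumours. In AntiPD1 against Placebo (0) there was 1 with only those groups fitted and 1 with array weights. In Combination against Cabozantinib (0) there was 1 with array weights and 1 without the muscle-rich tumours. With 1 tumour left out these comparisons and Combination against AntiPD1 gave 0 to 1. Fewer tumours in a fit also widen its errors, and beyond that the cause of these moves was not tested.

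The genes past the threshold over the whole table were 44 in Cabozantinib against Placebo, and 4 with only those groups fitted, 71 with array weights, 72 among genes above the highest array median, 73 without the muscle-rich and 15 without the adipocyte-rich tumours, 260 with the Y-linked covariate, and 5 to 91 with 1 tumour left out. For AntiPD1 against Placebo (5) the same settings gave 70, 1822, 1, 11, 10, 0 and 0 to 30, with 2 over all probe sets, 1 with the random block and 0 with the labelling covariate. For Combination against Placebo (1771) array weights gave 3059, the muscle-rich tumours left out 2788, the adipocyte-rich left out 5, the Y-linked covariate 1, and 1 tumour left out 42 to 2290. For Combination against Cabozantinib (1) they gave 1441, 3612, 0, 0 and 0 to 1955, with 2 among genes above the highest median and 1754 with the labelling covariate. For Combination against AntiPD1 (40) they gave 155, 19, 6, 85 and 13 to 50, with 22 from only those groups and 24 among genes above the highest median. For Cabozantinib against AntiPD1 (928) they gave 2864, 1727, 463, 42 and 164 to 1916, with 1417 over all probe sets, 149 from only those groups and 1612 with the labelling covariate. For cabozantinib averaged over the antibody (362) there were 730 with array weights, 98 without the adipocyte-rich tumours, 929 with the Y-linked covariate and 158 to 443 with 1 tumour left out. For the interaction (0) there was 1 without the muscle-rich tumours and 0 to 1 with 1 tumour left out.

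The differences that turned sign had all not passed in the main fit, and the cause was not tested. For Pdgfrb, AntiPD1 against Placebo was -0.066 with array weights, -0.26 without the muscle-rich tumours, -0.16 with the labelling and -0.89 with the Y-linked covariate, and -0.26 to 0.27 with 1 tumour left out. Combination against AntiPD1 was 0.0014 with array weights, 0.17 without the muscle-rich and 0.10 without the adipocyte-rich tumours, 0.053 with the labelling covariate and -0.30 to 0.22 with 1 left out. Combination against Placebo was 0.16 without the adipocyte-rich tumours and -0.22 to 0.087 with 1 left out. With the Y-linked covariate, Combination against Cabozantinib was -0.57 and Cabozantinib against AntiPD1 was 0.52. For Pdgfb, Combination against Cabozantinib was 0.056 with array weights, 0.083 without the muscle-rich and 0.10 without the adipocyte-rich tumours, and -0.11 to 0.052 with 1 left out. Its interaction was 0.017 with array weights, 0.10 without the muscle-rich tumours and -0.30 to 0.018 with 1 left out. AntiPD1 against Placebo was -0.020 without the muscle-rich tumours and -0.020 to 0.30 with 1 left out, Combination against AntiPD1 was -0.0088 with the labelling covariate and -0.13 to 0.19 with 1 left out, and Cabozantinib against AntiPD1 was -0.13 to 0.19 with 1 left out. For Acta2, Combination against Placebo was -0.050 without the muscle-rich tumours, -0.29 with the Y-linked covariate and -0.050 to 0.22 with 1 left out, and its interaction was 0.17, 0.069 and 0.32 without the muscle-rich tumours, without the adipocyte-rich tumours and with the labelling covariate, and -0.21 to 0.15 with 1 left out. For Notch3 the interaction was 0.091 without the muscle-rich and 0.048 without the adipocyte-rich tumours and -0.21 to 0.10 with 1 left out, and Combination against Cabozantinib was -0.053 with the Y-linked covariate. For Rgs5, Combination against Cabozantinib was -0.0045 without the muscle-rich tumours, and AntiPD1 against Placebo was 0.085 with the Y-linked covariate and -0.23 to 0.016 with 1 left out. Pdgfrb minus the endothelial score was -0.13 in Cabozantinib against Placebo and 0.26 in Combination against Cabozantinib without the muscle-rich tumours, and -0.040 to 0.39 and -0.21 to 0.22 with 1 left out.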
